A study of Mus musculus with 2 samples.

Results

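The 10 genes described here encode amino acid transporters of the plasma membrane: Slc7a1 and Slc7a2, Slc3a2 with its partners Slc7a5, Slc7a6 and Slc7a11, Slc38a1 and Slc38a2, and Slc1a4 and Slc1a5. They were taken from the deposited tables by symbol, 10 of 55573 listed genes, and all 10 were found. The set was chosen by the read counts of these same libraries, around the lower value of Slc7a2 after depolarization, so the values of its members are given as a description and support nothing by themselves. RNA-seq was performed on mesenteric arteries, the resistance arteries of the intestine, of wild type C57BL/6 mice 10 weeks old. In 1 library the arteries had been kept in 5 mM K+ solution (control) and in the other in 60 mM K+ solution, which depolarizes the smooth muscle membrane and opens voltage-dependent Ca2+ channels. The labels give an incubation of 60 min in either solution, and the tissue of 2 mice went into every library. As 1 library stands for each K+ concentration, the differences could not be checked against replicates, and p-values are left out.

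The methods of the study describe the control segment as the distal side of ligated arteries, harvested before the rest was perfused, whereas the labels give both groups the same time. Segment, perfusion, time in solution and K+ therefore cannot be told apart. All solutions held tetrodotoxin, which silences nerves.

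Amino acids cross the plasma membrane only through carriers. Slc7a1 (CAT-1) and Slc7a2 (CAT-2) carry arginine, lysine and ornithine, and arginine is the substrate of nitric oxide synthases and arginases. Slc3a2 (CD98, the 4F2 heavy chain) is a glycoprotein that brings SLC7 light chains to the cell surface: Slc7a5 (LAT1) exchanges leucine and other large neutral amino acids, Slc7a6 (y+LAT2) exchanges cationic for neutral amino acids, and Slc7a11 (xCT) takes up cystine for glutathione synthesis in exchange for glutamate. Slc38a1 and Slc38a2 (SNAT1 and SNAT2) take up glutamine and other neutral amino acids with Na+. Slc1a4 and Slc1a5 (ASCT1 and ASCT2) exchange alanine, serine and cysteine, and Slc1a5 also glutamine. Several of these genes are textbook targets of ATF4, the transcription factor of the amino acid response.

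Counted reads on genes totalled 10480918 for 5 mM K+ and 11289598 for 60 mM K+. Differences are given as log2(fold-change), 60 mM K+ over 5 mM K+, after TMM (trimmed mean of M-values) scaling, each with a 95% Clopper-Pearson interval that covers counting error only. CPM denotes reads per 1000000 of the TMM-scaled library, and a floor of 3 counts is 0.266 CPM in the 5 mM K+ library and 0.286 CPM in the 60 mM K+ library. The tissue label held: all 8 smooth muscle markers were read, with a summed level of 42328 CPM in 5 mM K+ and 47368 CPM in 60 mM K+. Acta2 (16614 and 19023 CPM) and Myh11 (13672 and 14130 CPM) carried most of this sum. Tagln was at only 27.9 and 36.8 CPM, and the reason was not tested. Summed levels of other markers were 3351 and 4565 CPM for 8 endothelial, 6213 and 5712 CPM for 8 fibroblast, and 55.3 and 51.1 CPM for 9 macrophage genes. Of 6 adipocyte markers 5 were lower in 60 mM K+ (130 and 107 CPM in sum), and all 5 red blood cell markers were lower (80.6 and 51.2 CPM). Of 7 pancreas markers 5 were higher in 60 mM K+ (11.4 and 39.5 CPM) and Prss1 and Amy2a5 were at 0 in both. In bulk tissue, a smaller share of a cell type and less RNA per cell cannot be told apart, and the part of these shifts in the values below was not tested.

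Of the 10 genes, 9 had at least 10 reads over both libraries, and these 9 differed in direction and size. Slc7a5 was the only one more than 2-fold higher in 60 mM K+, beside 5.54% of the 14829 genes with at least 10 reads. Slc7a2 was the only one more than 2-fold lower, beside 5.86% of those genes. At 1.5-fold, 4 genes were higher (Slc7a1, Slc7a5, Slc3a2 and Slc1a4), beside 11.9% of all genes, and 2 were lower (Slc7a2 and Slc38a1), beside 13.1%. Over the 9 genes the median was 0.34 on the log2 scale, compared with -0.0047 for all genes with at least 10 reads and 0.08 for those with at least 500. The 8 housekeeping genes had a median of 0.42, above that of the set, and 7 of them were above 0, among them Gapdh at 0.62, Ppia at 0.51 and Hprt at 0.47. Scaling by total counts lowers every log2(fold-change) by 0.21, and the median of the 9 genes was then 0.14, that of the housekeeping genes 0.22 and that of all genes -0.21.

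**Figure D1:**
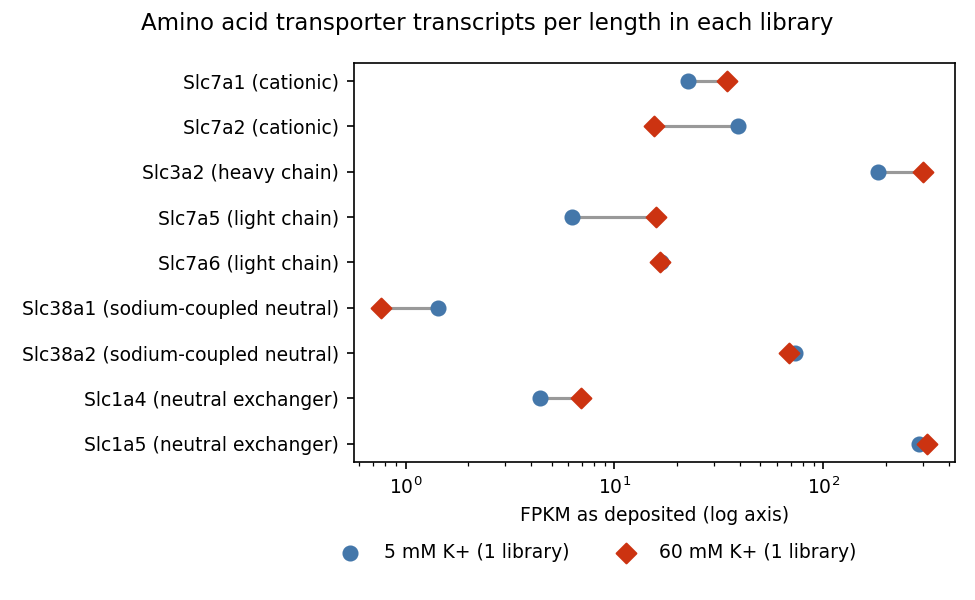
FPKM (fragments per kilobase of gene length, scaled to library depth, as deposited, on a log axis) of 9 transporter genes in the 5 mM K+ library (blue circles) and the 60 mM K+ library (red diamonds), 1 library each, with the class of each gene in brackets. Slc7a2 moved from 39.2 to 15.5 and crossed Slc7a1, which moved from 22.5 to 34.6; Slc7a11 is left out because it was listed at 0 in 5 mM K+.

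The cationic amino acid transporters moved in opposite directions. Slc7a2 (ENSMUSG00000031596) lies on chromosome 8 from 41947750 to 42007662, plus strand, on mm9, with 5 annotated transcripts. Its 1925 reads in 5 mM K+ stood against 820 in 60 mM K+. This is 171 and 78.1 CPM, a level 2.19-fold lower in the depolarized library (log2(fold-change) -1.13, counting interval -1.25 to -1.01). Reads were counted per gene, so CAT-2A and CAT-2B, the splice forms of Slc7a2 that differ in affinity for arginine, cannot be told apart. The annotated lincRNA Gm17475 overlaps an exon of Slc7a2 on the other strand and is not listed in the count table. Slc7a1 (ENSMUSG00000041313; chromosome 5, 149138986 to 149211480, minus strand) had 578 and 958 reads, or 51.3 and 91.2 CPM. Its level was 1.78-fold higher in 60 mM K+ (log2(fold-change) 0.83, counting interval 0.68 to 0.98). Within each library the ratio of Slc7a2 to Slc7a1 needs no scaling between libraries. On the FPKM scale it was 1.74 in 5 mM K+ and 0.448 in 60 mM K+, a 3.89-fold lower ratio (log2 change -1.96, counting interval -2.15 to -1.77). Slc7a2 made up 63.5% of the summed FPKM of this pair in 5 mM K+ and 30.9% in 60 mM K+. The sum itself was 61.7 and 50.2 FPKM. With TMM-scaled CPM per kilobase of the same lengths it was 57.4 and 53.9.

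Slc3a2 and Slc7a5, which encode the heavy and light chain of LAT1, were both higher in 60 mM K+. Slc3a2 (ENSMUSG00000010095; chromosome 19, 8781372 to 8797859, minus strand) had 1943 and 3433 reads, or 172 and 327 CPM. The level in the depolarized library was 1.90-fold higher (log2(fold-change) 0.92, counting interval 0.84 to 1.00). Slc7a5 (ENSMUSG00000040010; chromosome 8, 124405052 to 124431594, minus strand) had far fewer reads, 94 and 256, or 8.34 and 24.4 CPM. It showed the largest difference of the set, a 2.92-fold higher level (log2(fold-change) 1.55, counting interval 1.20 to 1.90). The other light chains of the set differed less or were barely read. Slc7a6 (ENSMUSG00000031904; chromosome 8, 108692775 to 108722604, plus strand) had 296 and 313 reads, and its log2(fold-change) of 0.18 (counting interval -0.05 to 0.42) became -0.03 with total-count scaling. Slc7a11 (ENSMUSG00000027737; chromosome 3, 50168858 to 50247535, minus strand) had 0 reads in 5 mM K+, which allows up to 0.266 CPM, and 1 read in 60 mM K+. No fold is given for it, and at this depth its transcript was not detectable above the floor in either library.

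The make-up of the light chains therefore differed between the libraries. Slc7a5 was at 6.25 FPKM in 5 mM K+ and 15.8 FPKM in 60 mM K+, and Slc7a6 at 16.8 and 16.5 FPKM. The ratio of Slc7a5 to Slc7a6 went from 0.372 to 0.958, 2.58-fold higher in 60 mM K+ (log2 change 1.36, counting interval 0.94 to 1.79). Slc7a5 also gained on its heavy chain: its ratio to Slc3a2 was 1.54-fold higher (log2 change 0.62, counting interval 0.27 to 0.99). The heavy chain stayed far more abundant than its partners. Slc3a2 was at 182 and 299 FPKM, and the light chains Slc7a5, Slc7a6, Slc7a7, Slc7a8, Slc7a10 and Slc7a11 summed to 35.2 and 40.9 FPKM, a ratio of 5.17 in 5 mM K+ and 7.31 in 60 mM K+. Among light chains outside the set, Slc7a7 (y+LAT1) had 114 and 90 reads (log2(fold-change) -0.24, counting interval -0.65 to 0.17) and Slc7a8 (LAT2) had 64 and 50 reads (log2(fold-change) -0.25, counting interval -0.82 to 0.30).

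The neutral amino acid transporters with the most reads differed least. Slc38a2 (ENSMUSG00000022462; chromosome 15, 96517825 to 96530129, minus strand) had the most reads of all 10 genes, 4118 and 4155. With TMM its difference stood at 0.11 on the log2 scale (counting interval 0.05 to 0.18) and with total counts at -0.09, so its direction depends on the scaling. Slc1a5 (ENSMUSG00000001918; chromosome 7, 17366695 to 17383623, plus strand) had 3462 and 4095 reads, a 1.27-fold higher level in 60 mM K+ (log2(fold-change) 0.34, counting interval 0.28 to 0.41). With total counts this was 0.14. The related pair members with fewer reads stood further from 0. Slc1a4 (ENSMUSG00000020142; chromosome 11, 20202183 to 20232716, minus strand) had 180 and 304 reads, a 1.81-fold higher level (log2(fold-change) 0.86, counting interval 0.59 to 1.13). Relative to Slc1a5, Slc1a4 was 1.43-fold higher in the depolarized library (log2 change 0.51, counting interval 0.23 to 0.80). Slc38a1 (ENSMUSG00000023169; chromosome 15, 96401849 to 96473344, minus strand) had only 63 and 36 reads. Its level was 1.63-fold lower in 60 mM K+, with a wide counting interval of -1.34 to -0.09 around a log2(fold-change) of -0.71.

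**Figure D2:**
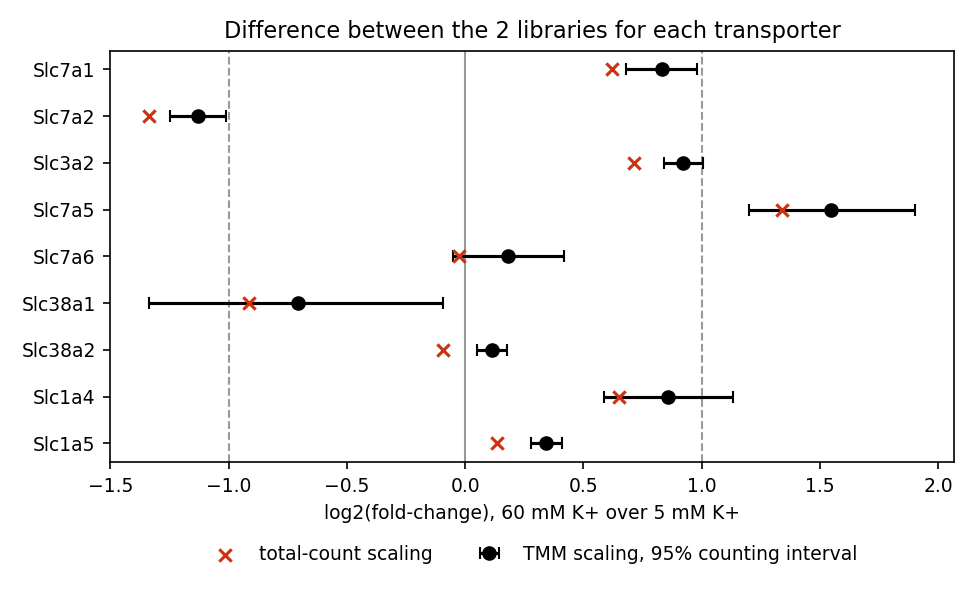
log2(fold-change) of 9 transporter genes, 60 mM K+ over 5 mM K+ (x axis), with TMM scaling (black points, bars are 95% counting intervals) and with total-count scaling (red crosses); dashed lines mark a 2-fold difference. Slc7a2 and Slc38a1 lie left of 0 with both scalings, and Slc7a6 and Slc38a2 change side.

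Levels were compared between genes per length, on the FPKM scale. In 5 mM K+ the order was Slc1a5 (287), Slc3a2 (182), Slc38a2 (72.9), Slc7a2 (39.2), Slc7a1 (22.5), Slc7a6 (16.8), Slc7a5 (6.25), Slc1a4 (4.40) and Slc38a1 (1.44), with Slc7a11 listed at 0. In 60 mM K+ the ends of the order were the same, with Slc1a5 at 315, Slc3a2 at 299, Slc38a2 at 68.3 and Slc38a1 at 0.762. Slc7a1 came next after Slc38a2 at 34.6, and Slc7a6, Slc7a5 and Slc7a2 lay close together at 16.5, 15.8 and 15.5. Among all listed genes Slc1a5 ranked 339 in 5 mM K+ and 337 in 60 mM K+, and Slc7a2 went from rank 2904 to rank 5573. This order rests on the lengths behind the deposited FPKM. Those implied lengths were 1152 bases for Slc1a5, 1017 for Slc3a2 and 1436 for Slc7a5, where the annotated exons of GENCODE vM1 together cover 4156, 2958 and 3515 bases. With these exon lengths Slc38a2 ranked first in 5 mM K+ and Slc3a2 first in 60 mM K+, and Slc7a2 made up 73.3% and 41.4% of its pair with Slc7a1. The direction of each within-gene difference does not depend on the length.

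Slc7a2 is among the 6 genes of the set with at least 500 reads over both libraries. Of 6549 genes with at least 500 reads, 0.122% were more than 2-fold lower in 60 mM K+, Slc7a2 among them, and 3.24% more than 2-fold higher, with 0 of the set. Slc7a2 had the 4th lowest log2(fold-change) of these genes. The well-read genes nearest to it in log2(fold-change) were Col19a1 (-1.12), Dbp (-1.10), Peg3 (-1.09), Cfd (-1.07) and Prmt2 (-1.22), a likeness that rests on 2 libraries only. Dbp is a clock output factor and Cfd encodes adipsin, a product of adipocytes. The 6 adipocyte markers had a median log2(fold-change) of -0.86, with Plin1 at -2.39, Adipoq at -1.04, Cidec at -0.90, Retn at -0.82, Fabp4 at -0.06 and Lep, with 1 and 9 reads, at 3.27. The log2 difference of their summed level was -0.28, and the fibroblast markers had a median of -0.14. Whether these cells bear on Slc7a2 was not tested. At the other end, Slc3a2 ranked 255 and Slc7a1 ranked 313 from the top of the 6549 genes.

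**Figure D3:**
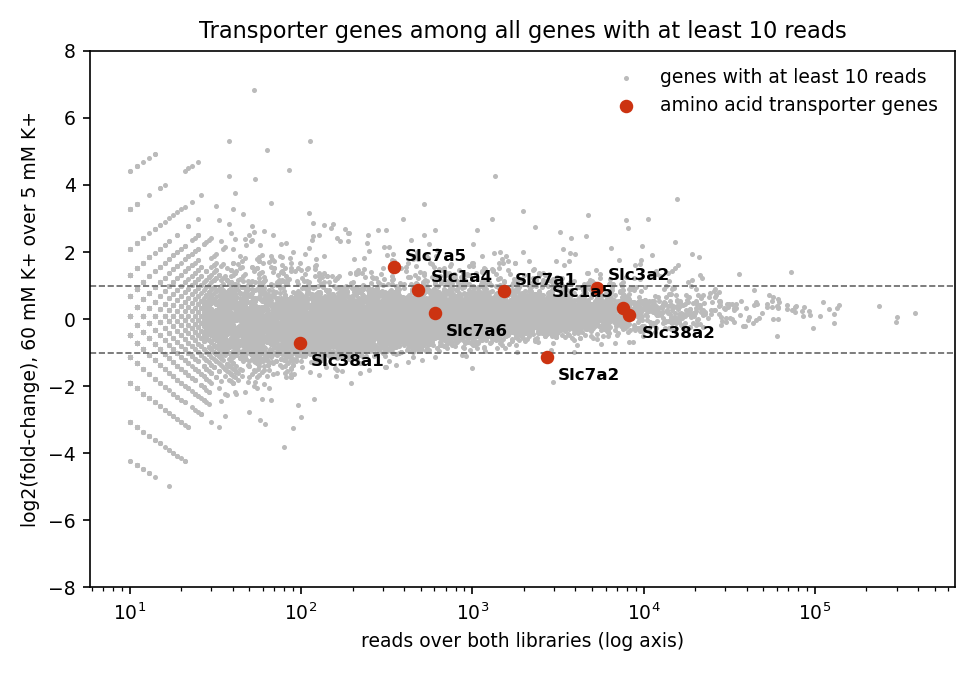
log2(fold-change), 60 mM K+ over 5 mM K+ (y axis), against reads over both libraries (log x axis) for 14829 genes with at least 10 reads (grey) and 9 transporter genes (red, named); dashed lines mark a 2-fold difference. Slc7a2, with 2745 reads, lies at the lower edge of the genes with similar reads, where few genes are more than 2-fold lower.

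Among 169 genes with a solute carrier symbol and at least 100 reads, 21 (12.4%) were more than 1.5-fold higher, beside 8.62% of all 10738 genes with at least 100 reads, and 15 (8.88%) more than 1.5-fold lower, beside 5.69%. Their median log2(fold-change) was -0.04 and that of all genes with at least 100 reads 0.03. Slc7a2 was the lowest of the 169. Above Slc7a5 stood Slc38a3 (SNAT3), a glutamine transporter, with 29 and 161 reads (log2(fold-change) 2.57, a 5.96-fold higher level), and Slc2a1, the glucose transporter GLUT1, at 1.96. Below it came Slc25a33 at 1.53 and Slc35e4 at 1.49. At the lower end Slc7a2 was followed by Slc5a6 (-1.10), a carrier of biotin and pantothenate, and by Slc2a4rg-ps (-1.05). The latter is a pseudogene that encodes no carrier and is counted among the 169 by its symbol only. Next came Slc6a7 (-0.91), a proline transporter, and Slc25a40 (-0.88).

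Promoter sequence was read from RefSeq for the 6 members that the promoter table holds, in 8 windows of 250 bases before to 50 bases after a start site (GRCm38.p6). Slc7a2, Slc7a5, Slc38a1 and Slc1a5 are not in it. On both strands, 5 motifs were searched: TGACGTCA, the full cAMP response element (CRE) that CREB binds; its shorter core TGACG; TGATGNAA, the C/EBP-ATF response element (CARE) of ATF4; TGACNNNGC, the antioxidant response element (ARE) of NRF2; and the E-box CACGTG. The full CRE was in 0 of 6 genes and in 1.79% of all 32851 promoters of the table, and the E-box in 0 of 6 and 7.15%. The core CRE was in 4 genes (Slc7a1, Slc7a6, Slc38a2 and Slc1a4) and in 20.8% of all promoters, and the ARE in 3 (Slc7a1, Slc7a6 and Slc38a2) and 12.4%. In Slc7a6 and Slc38a2 the ARE match overlaps the core CRE. The CARE was in Slc7a11 and Slc1a4 and in 3.97% of all promoters. These stretches are shown because they set a promoter with the motif beside the gene's reads, on the strand of the gene, with the CARE or core CRE in capitals on either strand.
Slc7a11, CARE pair, minus strand, chr3:50443643-50443689: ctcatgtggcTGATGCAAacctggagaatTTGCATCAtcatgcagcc
Slc1a4, CARE, minus strand, chr11:20332706-20332735: tccagcgtgcctcctgcgTTGCATCAtctc
Slc38a2, core CRE, minus strand, chr15:96699735-96699771: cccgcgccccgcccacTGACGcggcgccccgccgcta
Slc7a1, core CRE, minus strand, chr5:148400068-148400104: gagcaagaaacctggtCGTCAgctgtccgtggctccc

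The first base of the CARE matches lies at -66 and -47 from the start site in Slc7a11 and at -4 in Slc1a4, where the match runs across the start. Slc7a11, with the motif in both orientations, had 0 and 1 reads, and Slc1a4, with 1 match, was 1.81-fold higher in 60 mM K+. The core CRE of Slc38a2 lies at -27 and the one shown of Slc7a1 at -184, and these genes had log2(fold-change) of 0.11 and 0.83. Slc3a2, at 0.92, had none of the 5 motifs in its window. A match is a description of the letters in the window and no evidence of a bound factor.

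Atf4 and part of its target genes were higher in the 60 mM K+ library together with Slc7a5, Slc3a2, Slc7a1 and Slc1a4. The ATF4 list outside the transporters holds 20 genes with Atf4 included, all with at least 10 reads. More than 1.5-fold higher were 8, Atf4 among them, and 1 was more than 1.5-fold lower, beside 11.9% and 13.1% of all genes. With at least 100 reads, 7 were higher and 1 lower at this fold, beside 8.62% and 5.69%. Of the 20 genes 13 were above 0 and 7 below, with a median log2(fold-change) of 0.30. Atf4 itself had 2764 and 6074 reads (log2(fold-change) 1.24, counting interval 1.17 to 1.30). Ddit3 (CHOP) was at 1.31, the asparagine synthetase gene Asns at 1.54 with 14 and 38 reads, and Chac1, which degrades glutathione, at 3.16 with 12 and 100 reads. Cebpb was at 0.95, Nupr1 at 0.84, Mthfd2 at 0.83 and Sesn2 at 0.66. The serine synthesis genes Phgdh and Psat1 were at -0.08 and -0.07 and Trib3 at 0.26, with counting intervals that held 0. Aldh1l2 was lower at -0.84, and Vldlr (-0.28), Stc2 (-0.22) and Atf5 (-0.17) were lower as well, with counting intervals below 0. With total-count scaling the median of the list was 0.09.

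The list of arginine-related genes also holds genes that make arginine (Ass1 and Asl) and Azin2, a relative of the polyamine gene Azin1. Of its 11 matched genes, 7 had at least 10 reads. More than 1.5-fold higher were 4 (Nos3, Ass1, Asl, and Azin2 at 0.80), and 1 was more than 1.5-fold lower. The shares of all genes were 11.9% and 13.1%. With total counts 2 were higher and 2 lower, as Ass1 (0.53) and Asl (0.42) were then under 1.5-fold, and with FPKM and a pseudocount of 1 only 1 was higher. Nos3, the endothelial nitric oxide synthase, had 1013 and 2025 reads (log2(fold-change) 1.10, counting interval 0.99 to 1.21). The enzymes that rebuild arginine from citrulline were higher as well, with Ass1 at 0.74 (counting interval 0.56 to 0.92) and Asl at 0.63 (counting interval 0.32 to 0.93). Of 8 endothelial markers 7 were higher, and Kdr, with 168 and 73 reads, was lower at -1.10. The median of the 8 was 0.38, or 0.17 with total counts, and their part in the value of Nos3 was not tested. The other synthases and the arginases were at or near the floor: Nos1 had 4 and 3 reads, Nos2 1 and 0, Arg1 0 and 2 and Arg2 2 and 3. Gatm, which makes the creatine precursor from arginine, was lower at -1.01 with 108 and 50 reads. Among the polyamine genes, Odc1, the enzyme that turns ornithine into putrescine, had 1594 and 3303 reads (log2(fold-change) 1.15, counting interval 1.07 to 1.24). Its regulator Azin1 was at 0.66 and Sat1, which acetylates polyamines, at 0.60. The spermidine and spermine synthase genes Srm and Sms were at -0.12 and -0.14, with counting intervals that held 0. Amd1 was lower at -0.29 (counting interval -0.48 to -0.11). Of the 8 polyamine genes 4 were above 0 and 4 below, with a median of 0.14. More than 1.5-fold higher were 3, and 0 were more than 1.5-fold lower. The shares of all genes were 11.9% and 13.1%, or 8.62% and 5.69% of genes with at least 100 reads, as all 8 had. The count of 3 was 2 with upper-quartile or median-of-ratios scaling and 1 (Odc1) with total counts or FPKM.

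The gene lists next to cystine and glutamine transport held further higher values, while Slc7a11 had 0 and 1 reads and Slc38a2 was at 0.11. Of 12 glutathione and NRF2 genes, all with at least 100 reads, 6 were more than 1.5-fold higher and 0 more than 1.5-fold lower. The shares were 11.9% and 13.1% of genes with at least 10 reads, and 8.62% and 5.69% of those with at least 100. Of the 12 genes 9 were above 0 and 3 below, with a median log2(fold-change) of 0.54. Hmox1 was at 1.88, Srxn1 at 1.31 and Txnrd1 at 1.19. Gclc, the catalytic subunit of the enzyme that starts glutathione synthesis, was at 1.07, and its partner Gclm at 0.24. Nqo1 was at 0.09, G6pdx at -0.06 and Keap1 at -0.17, with counting intervals that held 0. Gsr was lower at -0.29 (counting interval -0.55 to -0.03). Of 6 genes of glutamine and glutamate metabolism, Gls2 was at 1.78 with 29 and 93 reads and Got1 at 0.78. The better read Glul (7288 and 8569 reads), which makes glutamine, was at 0.34. The list of amino acid sensing to mTORC1 holds 19 genes, Mtor and Rptor included, and had a median of 0.06. With TMM it held 0 values past 1.5-fold in either direction, and with upper-quartile scaling 1 was more than 1.5-fold lower. Sesn2, at 0.66, was placed in the ATF4 list and not in this one, which holds Sesn1 and Sesn3. With total counts the median was -0.15 and 2 genes were more than 1.5-fold lower (Sesn1 at -0.77 and Nprl2 at -0.72).

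Other amino acid transporters differed in both directions. Of the 11 other SLC7 and SLC3 genes only Slc7a3, Slc7a7 and Slc7a8 had at least 10 reads, all 3 with fewer in 60 mM K+. Slc7a3 went from 11 reads to 0, which is 3.42-fold lower with the 0 raised to the floor of 3 counts. This value leaves out the counting error of the 11 reads. Of 31 further amino acid transporter genes 19 had at least 10 reads, with a median log2(fold-change) of -0.25, while the summed level of the list was higher in 60 mM K+ (987 and 1225 CPM, a log2 difference of 0.31). Among these, 3 were more than 1.5-fold higher (Slc38a3, Slc1a3 and Slc6a17) and 5 more than 1.5-fold lower (Slc36a2, Slc6a7, Slc38a4, Slc38a11 and Slc43a2). The shares of all genes were 11.9% and 13.1%. Slc1a3 (13 and 25 reads), Slc36a2 (24 and 9) and Slc38a4 (36 and 18) had few reads. With at least 100 reads, 2 were higher and 3 lower at this fold, beside 8.62% and 5.69%. Slc6a17, a neutral amino acid transporter of synaptic vesicles, had 2429 and 4063 reads (log2(fold-change) 0.84, counting interval 0.77 to 0.92). Slc38a11 had 578 and 329 reads (-0.71, counting interval -0.91 to -0.51). Slc43a2, another carrier of large neutral amino acids (LAT4), had 130 and 76 reads (-0.67, counting interval -1.10 to -0.25), opposite in direction to Slc7a5. Of 17 lysosomal and mitochondrial carriers 14 had at least 10 reads and a median of 0.13, or -0.08 with total counts. Slc25a38, the mitochondrial glycine carrier, was at 0.91 and Slc36a1, a lysosomal carrier, at -0.62.

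**Figure D4:**
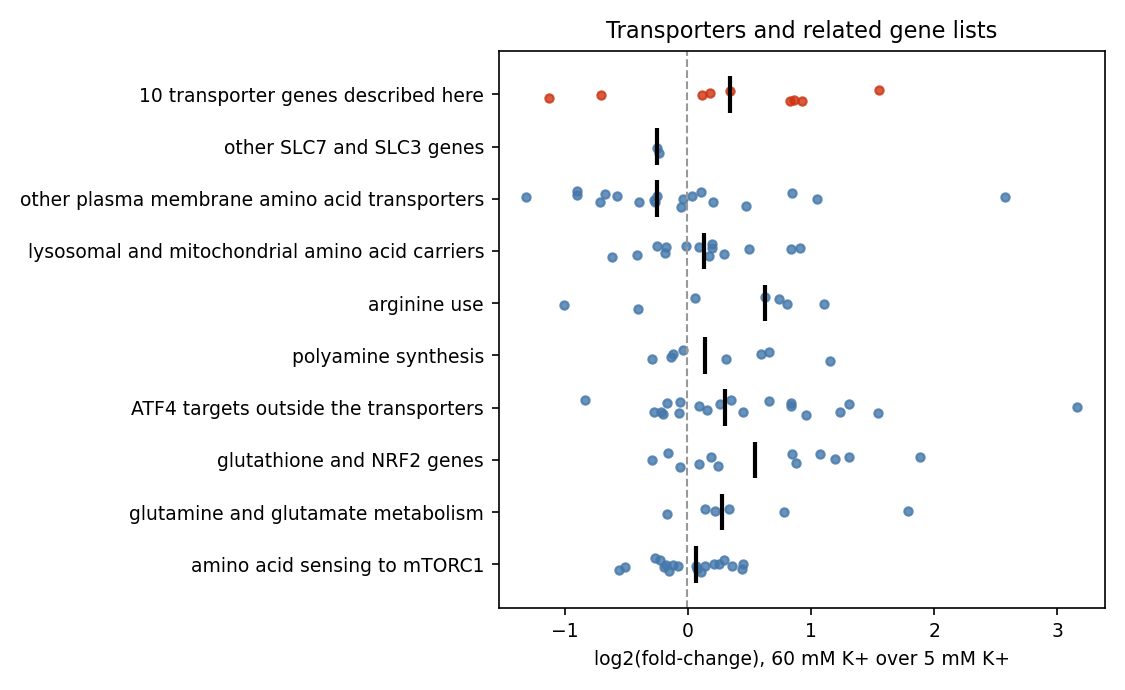
log2(fold-change), 60 mM K+ over 5 mM K+ (x axis), of each gene with at least 10 reads in the 10 transporter genes (red) and 9 related lists (blue); black bars are list medians, the dashed line is the median of all genes at -0.0047, and Slc7a3, with 0 reads in 60 mM K+, is not drawn. The transporter genes spread from -1.13 to 1.55, and the mTORC1 list stays between -0.56 and 0.45. Further right reach the lists of ATF4 targets (3.16), other plasma membrane transporters (2.57), glutathione (1.88) and glutamine and glutamate metabolism (1.78).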

How the data were processed

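Mesenteric artery RNA was sequenced in 2 libraries. TopHat2 was used by the authors for alignment, with mm9 as the reference. They deposited raw read counts per gene and FPKM values. The submitters' processing notes name TopHat2 2.0.12, HTSeq 0.6.1 and edgeR 3.0.8 and the builds mm8 and mm9, without roles. The gene annotation is not given in the sources used here: 22972 of 55573 listed identifiers are not in GENCODE vM1 (mm9), which gave names and positions. Dividing counts by FPKM gave a whole-number length (within 0.01) for all 21374 genes with a read, so the deposited FPKM were scaled by total counts.

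Counts were scaled by TMM (edgeR 4.0.16, R 4.3.3), and a 0 was set to 0.5. With 1 library per condition no quasi-likelihood fit could be made. Intervals are Clopper-Pearson intervals of the share of a gene's reads in 60 mM K+, or, for ratios, conditional exact intervals of the odds ratio (scipy 1.17.1). The interval was tested on simulated data. Alternatives were scaling by total counts, by the upper quartile or by DESeq2 1.42.0 size factors, FPKM with pseudocounts of 0.1 and 1, other minimum counts, the fold applied to the interval's end, and an exact binomial test of the reads. The exon-length alternative was added after seeing the data.

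The transporter set and the 21 other gene lists were chosen with earlier results of these data known. Named genes are the set, list members, the 5 highest and 5 lowest genes with a solute carrier symbol and at least 100 reads, and the 5 genes with at least 500 reads nearest Slc7a2. List symbols were matched to GENCODE vM1, older names through RefSeq synonyms, and Prmt1 was not matched. Plots were made in matplotlib 3.10.9.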

Additional observations from a re-analysis of the deposited data

How the results depend on the processing

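No paired analysis was possible because the design holds 1 library for 5 mM K+ and 1 for 60 mM K+, and for the same reason no library could be left out. With TMM scaling, 1 gene was past 2-fold higher, 1 past 2-fold lower, 4 past 1.5-fold higher and 2 past 1.5-fold lower. The count of genes past 2-fold lower was 1 in all 9 alternatives, and that past 1.5-fold higher stayed between 3 and 5. Without a minimum of reads, 2 genes were past 2-fold higher, because Slc7a11 with its 1 read then counted. Slc38a1, with 99 reads, left 1 gene past 1.5-fold lower with a minimum of 100 reads, with the fold applied to the interval's end, with the binomial test of the reads (adjusted under 0.005, a comparison of these libraries and not of the conditions), and with FPKM and a pseudocount of 1. The median log2(fold-change) of the set, 0.34, was 0.14 with total counts, 0.13 with FPKM and a pseudocount of either 0.1 or 1, and 0.59 without a minimum or with at least 100 reads, where the genes included differ.

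For single genes of the set, 16 alternative values lay outside the counting interval and 29 inside, and no value past 2-fold changed sign. For the other lists, 24 medians moved and 114 did not, and 52 counts moved and 228 did not. The CARE was in 1 gene in place of 2 when the search ended at the start site. Slc3a2 over its light chains was 3.76 in 5 mM K+ and 5.55 in 60 mM K+ with exon lengths. For genes with few reads, such as Slc38a1, depth limits what can be said.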
